A study of Mus musculus with 8 samples.

Results

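The 10 genes described here encode adenosine receptors (Adora1, Adora2a, Adora2b), cAMP phosphodiesterases (Pde3a, Pde3b, Pde4b, Pde4d), a catalytic and a regulatory subunit of protein kinase A (Prkaca, Prkar1a) and the ciliary receptor Gpr161. They were taken by symbol from the 24539 genes of the count table. Adora2a was selected on its differences among the KO-, WT- and SmoM2-labelled libraries and Pde3a on its lower level in KO- than in Het-labelled libraries, so these differences are descriptions with no test. The other 8 genes were chosen by function. RNA was sequenced from nephron progenitors, the mesenchymal cells that form nephrons, sorted from mouse kidneys at E18.5.

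All 4 groups carried Six2GFPcre, a transgene that makes a fusion of GFP and Cre recombinase under the control of Six2, a gene of nephron progenitors, so the controls made Cre as well. KO-labelled embryos were Smo c/c, with both copies of the Hedgehog transducer Smo conditional. Het-labelled embryos were Smo c/+, and WT-labelled embryos were Smo +/+. SmoM2-labelled embryos were Smo +/+ with a Rosa26 SmoM2/+ allele, which gives an activated form of Smo in cells with Cre activity. Each group had 2 libraries. Nothing in the labels says that the 2 libraries came from separate embryos, so the p-values measure only the spread between these samples.

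Adenosine receptors are G-protein coupled: the A1 type lowers cAMP through Gi, whereas both A2 types raise it through Gs. Phosphodiesterases break cAMP down, and cAMP frees the catalytic subunits of protein kinase A (PKA) from its regulatory subunits. PKA phosphorylates Gli proteins, which promotes their processing to repressors and restrains Hedgehog output. Gpr161 raises cAMP at the primary cilium and leaves the cilium when Smo is active.

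The libraries held between 4422305 and 10305398 listed counts, and the KO-labelled libraries were the smallest. Smo lay at 3.28% of the WT level in KO-labelled libraries, but also at 5.20% in Het-labelled libraries, against the label of a single conditional copy. Groups are therefore named by their labels throughout. Nephron progenitor genes were high in every group, led by Six2, and 8 of 10 endothelial genes had at most 12 counts in any library. The other two were higher in KO- than in WT-labelled libraries (Cldn5 at 19.6 ± 3.65 against 1.64 ± 0.606 CPM, Plvap at 24.8 ± 10.1 against 14.4 ± 1.51, edgeR adjusted p = 0.00018 and 0.0496), and the list summed to 37.7 to 59.8 CPM against at most 20.7. The stromal gene Foxd1 stood at 8.27 ± 6.46 CPM in KO-, 184 ± 17.8 in WT- and 343 ± 59.4 in SmoM2-labelled libraries, and its log2 change was -3.30 in Het against WT labels (edgeR adjusted p = 0.000101). The whole stromal list summed to 478 to 968, 612 to 752, 698 to 817 and 929 to 1006 CPM in KO-, Het-, WT- and SmoM2-labelled libraries. Of its 9 tested genes 1 was higher and 1 lower in KO against WT, beside 23.0% of all tested genes in either direction. Erythroid genes summed to 14.2 to 45.8 CPM in KO-, 20.4 to 26.6 in Het- and 4.29 to 5.34 in WT-labelled libraries. Immune genes summed to 81.9 to 111.6, 115.6 to 138.9 and 16.1 to 39.2 CPM there, with Cd74 the largest. Ptprc had at most 1 count in a library. Csf1r had 25 and 0 counts in KO-, 15 and 6 in Het-, 40 and 16 in WT- and 18 and 12 in SmoM2-labelled libraries. C1qa stood at 3.10 ± 4.07 CPM in KO- and 2.87 ± 1.75 in WT-labelled libraries, and Laptm5 at 3.65 ± 4.24 and 3.52 ± 1.74. In KO- against WT-labelled libraries 8 of 10 early nephron markers were higher, beside 23.0% of all tested genes in either direction. The 8 include Emx2, which was at the floor in WT-labelled libraries, at 0.148 ± 0.0548 CPM. The 10 markers summed to 1415 to 1740 CPM against 522 to 721. Dissociation stress genes summed to 6549 to 8090 CPM in KO-, 10391 to 10739 in Het-, 4561 to 4910 in WT- and 4991 to 6966 in SmoM2-labelled libraries. By Xist and Y-linked genes both KO-labelled libraries were male and both Het-labelled female, while replicate 1 of the WT and SmoM2 labels was male and replicate 2 female. The part of these other cell types, and of nephron differentiation, in the results below was not tested. In sorted pools, fewer cells that express a gene and less RNA per cell cannot be told apart.

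Promoters are shown for 4 of the genes because they carry letters that factors of these pathways are known to recognise. RefSeq (GRCm38.p6) gave 18 windows of 250 bases before a start site for 7 of the 10 genes. Both strands were searched for the cAMP response element TGACGTCA, its core TGACG, the Gli motif GACCACCCA and its core CCACCCA; the shorter motifs also match inside the longer ones. Each sequence runs 5′ to 3′ on the strand of the gene, with matches in capitals.
Adora1, chr1:134234857-134235106, minus strand: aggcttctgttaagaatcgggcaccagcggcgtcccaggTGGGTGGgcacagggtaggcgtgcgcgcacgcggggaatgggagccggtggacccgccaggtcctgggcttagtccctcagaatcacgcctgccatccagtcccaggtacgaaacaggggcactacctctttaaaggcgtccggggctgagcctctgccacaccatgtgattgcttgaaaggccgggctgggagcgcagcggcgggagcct
Pde4b, chr4:102421305-102421554, plus strand: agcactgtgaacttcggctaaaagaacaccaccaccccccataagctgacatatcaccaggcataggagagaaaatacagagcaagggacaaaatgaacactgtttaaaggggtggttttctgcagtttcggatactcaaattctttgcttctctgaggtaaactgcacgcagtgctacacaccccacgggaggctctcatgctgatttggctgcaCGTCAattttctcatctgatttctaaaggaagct
Prkaca, chr8:83972728-83972977, plus strand: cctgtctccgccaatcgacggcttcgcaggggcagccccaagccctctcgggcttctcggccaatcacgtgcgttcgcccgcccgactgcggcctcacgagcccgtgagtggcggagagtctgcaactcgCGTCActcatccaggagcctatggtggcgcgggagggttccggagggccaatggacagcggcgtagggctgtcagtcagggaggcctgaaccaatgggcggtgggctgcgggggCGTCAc
Prkar1a, chr11:109650699-109650948, plus strand: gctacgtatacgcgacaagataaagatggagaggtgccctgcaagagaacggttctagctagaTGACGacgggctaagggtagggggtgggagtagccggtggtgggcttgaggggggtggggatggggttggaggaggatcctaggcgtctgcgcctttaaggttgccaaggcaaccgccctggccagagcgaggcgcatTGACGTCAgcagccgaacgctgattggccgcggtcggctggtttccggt
Among several Prkar1a windows, only the one shown holds the whole cAMP response element, 49 bases before its start. The element is found in 1.55% of the 32851 windows in the table. In the windows shown, Prkaca has the core at 120 and at 6 bases before its start and Pde4b at 34 bases, a core that 17.8% of windows hold. The other windows of Adora1, Pde4b and Prkaca held no match. The Gli core lies in 2 of the 18 windows, this Adora1 window at 211 bases before the start and another Prkar1a window (chr11:109649113-109649362) at 35 bases, and in 8.11% of all windows, and the Gli motif of 9 bases was in none of the 18 windows, against 0.225% of all. These matches describe letters in the windows and nothing about binding.

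Adora1, which encodes the Gi-coupled A1 receptor, was higher in KO- than in WT-labelled libraries. The gene (ENSMUSG00000042429) lies at chr1:134199223-134235431 in GRCm38. Its level was 36.98 and 39.62 CPM (counts scaled to a common library size) in the KO-labelled libraries, 15.64 and 24.80 in the Het-labelled, 17.62 and 9.58 in the WT-labelled and 13.91 and 5.32 in the SmoM2-labelled libraries. Both KO-labelled libraries lay above the other 6, and the WT-labelled libraries overlapped both the Het- and the SmoM2-labelled ones, which lay apart from each other. The difference was 1.48 on the log2 scale (SE 0.38, n = 2 and 2, adjusted p = 0.0186, edgeR quasi-likelihood test with Benjamini-Hochberg adjustment), which is 2.80-fold. Leaving out a single library moved that adjusted p to 0.0785 without KO replicate 1, 0.0714 without KO replicate 2 and 0.0887 without WT replicate 2. The log2 change against the Het-labelled libraries was 0.93 (SE 0.38), with an adjusted p of 0.143 in edgeR. Het- and WT-labelled libraries differed by 0.55 (SE 0.39, edgeR adjusted p = 0.316), and the SmoM2 and WT labels by -0.50 (SE 0.40, edgeR adjusted p = 0.889).

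In both groups with a library of each sex, the male library had the higher Adora1 level. The male library was replicate 1 in both, so sex and replicate number cannot be told apart there. With sex as a term in edgeR, KO- against WT-labelled libraries differed by 1.02 (adjusted p = 0.0197) and Het- against WT-labelled libraries by 1.19 (adjusted p = 0.0108), while KO- against Het-labelled libraries differed by -0.17 (adjusted p = 0.793). The direction between KO and Het labels thus depended on that term, and in these groups alone sex and genotype cannot be told apart. With the stress score as a term, Adora1 was 2.75 higher in KO- than in WT-labelled libraries on the log2 scale (edgeR adjusted p = 0.0453). Het and WT labels differed by 2.78 (edgeR adjusted p = 0.215) and KO and Het labels by -0.02 (edgeR adjusted p = 0.986). The score differed between the groups. Its widest spread within a group was in the SmoM2-labelled libraries, at -0.356 in the male and 0.118 in the female library. Stress and sex cannot be told apart in that pair, which limits these values. Adora1 shares 1162 exon bases, 20.1% of its own, with Mybph on the opposite strand. The strand setting of the counting is not given in the sources used here, and Mybph itself had 56 counts over all libraries.

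Adora2a encodes the Gs-coupled adenosine receptor of the A2 type (ENSMUSG00000020178, chr10:75316877-75334784). Its level was 39.41 and 45.94 CPM in KO-labelled, 28.34 and 27.86 in Het-labelled, 3.08 and 1.85 in WT-labelled and 0.61 and 1.27 in SmoM2-labelled libraries. The 4 groups fell in that order with no overlap between any of them. The log2 difference was 4.09 (SE 0.28) between KO- and WT-labelled, 3.49 (SE 0.28) between Het- and WT-labelled, 0.60 (SE 0.23) between KO- and Het-labelled and -1.41 (SE 0.40) between SmoM2- and WT-labelled libraries. The gene was chosen on differences among these libraries, and the values are given without a test. Both groups with low Smo were thus the ones with high Adora2a, whatever their label. Adora2b (ENSMUSG00000018500, chr11:62248984-62266453), the other Gs-coupled receptor, had between 0 and 3 counts in each library and did not pass the filter on low counts. Adora3 had a single count, in WT replicate 1.

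**Figure D1:**
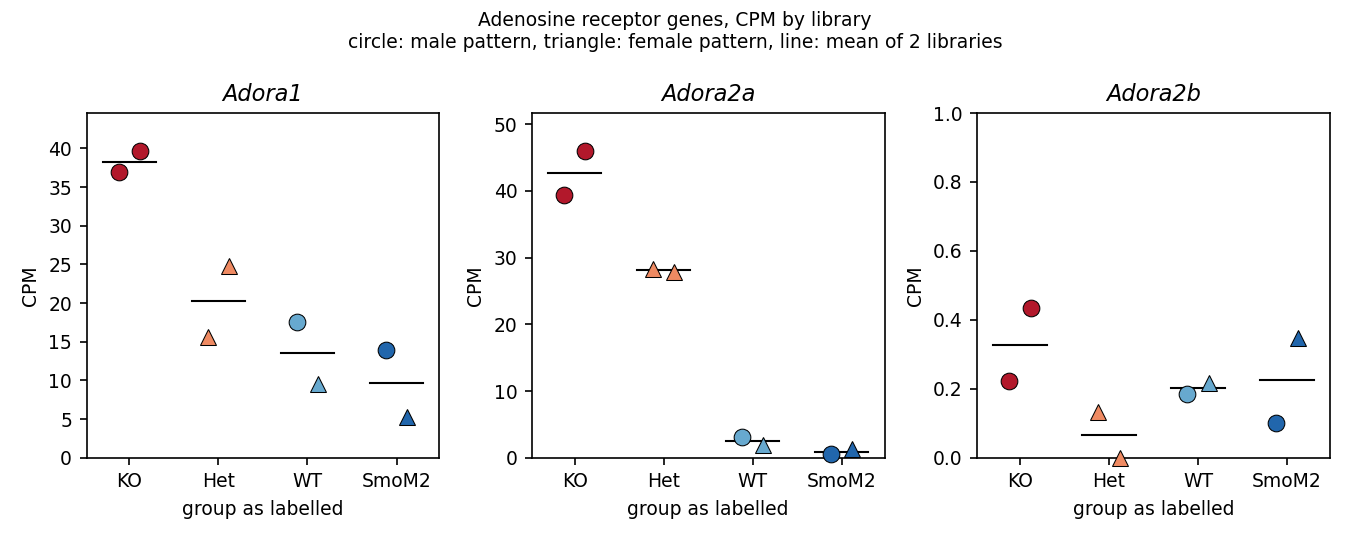
Levels of the adenosine receptor genes in CPM (vertical axis, from 0, own scale per gene) for the 8 libraries by labelled group (horizontal axis). Circles are male and triangles female libraries, and lines are means of 2. Adora2a reaches 27.86 to 45.94 CPM under the KO and Het labels but 0.61 to 3.08 under the WT and SmoM2 labels, whereas Adora1 separates only the KO-labelled libraries.

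Per gene length, the make-up of the receptor family differed between the groups. Summed over the 4 adenosine receptors, the authors' RPKM (reads scaled by gene length and library total) came to 18.7 ± 1.96 (SD, n = 2) in KO-, 10.9 ± 0.692 in Het-, 2.76 ± 1.19 in WT- and 1.68 ± 0.632 in SmoM2-labelled libraries. Adora2a made up 69.0% ± 1.04 of that sum in KO-labelled and 74.1% ± 6.09 in Het-labelled libraries. In WT-labelled libraries its share was 26.3% ± 1.06, and in SmoM2-labelled libraries 18.6% ± 14.7. Adora1 was the larger part there, at 69.6% ± 2.18 and 74.3% ± 21.8. These shares rest on the values that chose Adora2a and carry no test.

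**Figure D2:**
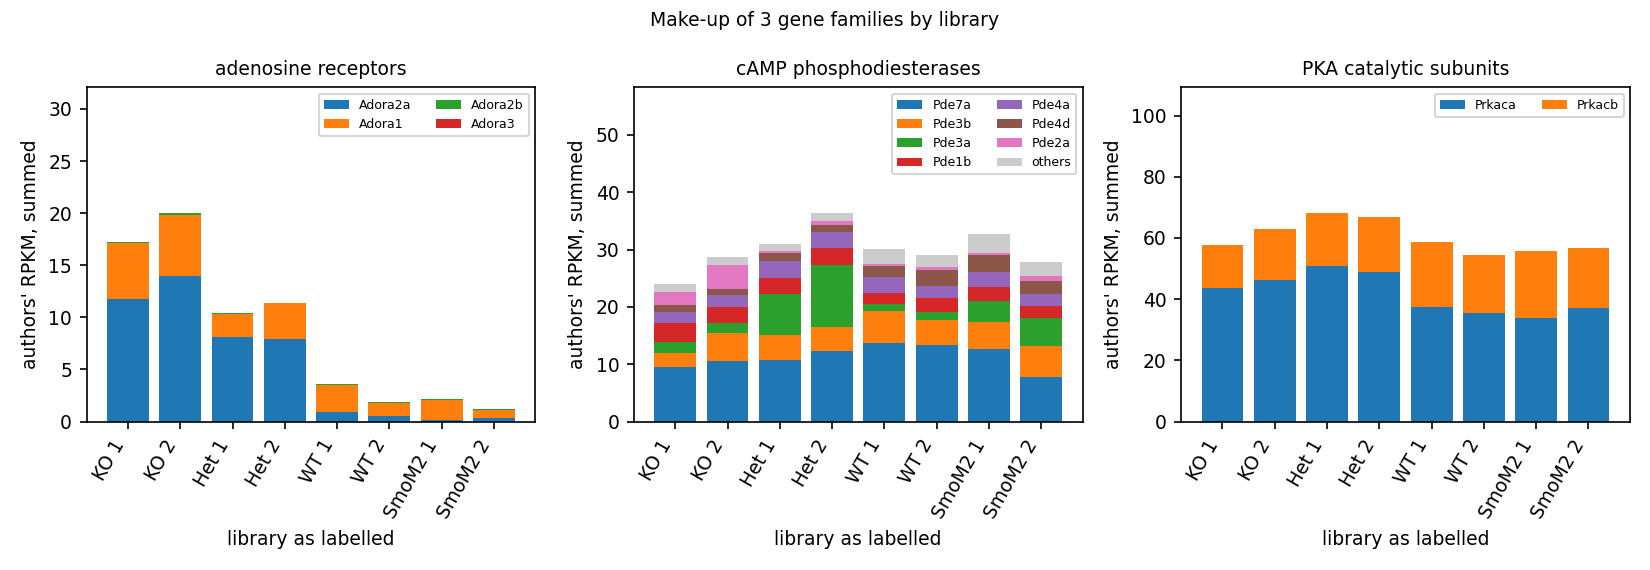
The authors' RPKM, stacked by gene, for adenosine receptors, cAMP phosphodiesterases and PKA catalytic subunits in each library (horizontal axis, as labelled). The receptor sum is 10.4 to 20.0 RPKM under the KO and Het labels and 1.24 to 3.61 under the WT and SmoM2 labels, while the phosphodiesterase sum stays between 24.0 and 36.4.

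Of 12 listed genes that supply or clear adenosine, 9 were tested. Leaving out Entpd1, which was at the floor, none of 8 passed in KO- against WT-labelled libraries by edgeR, beside 23.0% of all genes. The median log2 change of the 8 was 0.41, against 0.03 over all genes. The CD73 ectonucleotidase gene Nt5e was low, at 1.32 CPM in KO-, 0.455 in Het- and 1.12 in WT-labelled libraries, and was at the floor under the Het label. Adk (adenosine kinase) differed by 0.60 (SE 0.21, edgeR adjusted p = 0.0596) and Ada (adenosine deaminase) by 1.58 (SE 0.53, edgeR adjusted p = 0.0503) between KO and WT labels. In Het- against WT-labelled libraries 2 of 7 were higher and 0 lower, leaving out Entpd1 and Nt5e. This was 28.6% beside 25.3% of all genes, with a median log2 change of 0.37 against -0.02. Entpd6, a nucleoside diphosphatase, was higher by 0.98 (SE 0.22, edgeR adjusted p = 0.00934). The nucleoside transporter Slc29a2 was higher by 0.82 (SE 0.18, edgeR adjusted p = 0.00791).

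Of the 8 members not selected on their values, Adora2b was not tested, and Pde4b passed the filter on low counts only through the WT- and SmoM2-labelled libraries, so the KO and Het counts leave it out. In KO- against WT-labelled libraries 2 of the other 6 passed (Adora1 higher, Pde4d lower), where 23.0% of all tested genes did, and their median log2 change was -0.07 against 0.03 over all genes. In Het- against WT-labelled libraries 2 of the 6 passed (Prkaca higher, Pde4d lower) beside 25.3% of all genes, with a median of 0.00 against -0.02. In SmoM2- against WT-labelled libraries 0 of 7 passed by edgeR, beside 0.223% of all genes, and 0 passed by DESeq2. An unadjusted edgeR p under 0.05 was reached by 0 of the 7, beside 1036 of all 13459 tested genes. In KO- against Het-labelled libraries 0 passed by edgeR, beside 9.43% of all genes, and 0 by DESeq2. There 1, Adora1, had an unadjusted edgeR p under 0.05, beside 3694 of the 13459 tested genes. Without both Het-labelled libraries in the model, Adora1 and Pde4d were again the 2 that passed in KO- against WT-labelled libraries, leaving out Pde4b. In SmoM2- against WT-labelled libraries again 0 passed.

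Pde4d and Pde4b encode cAMP-specific phosphodiesterases. Pde4d was lower in KO- and Het- than in WT-labelled libraries. Pde4d (ENSMUSG00000021699, chr13:108449948-109953461) stood at 9.08 and 7.84 CPM in KO-labelled, 11.76 and 11.21 in Het-labelled, 15.75 and 25.60 in WT-labelled and 26.07 and 19.76 in SmoM2-labelled libraries. All 4 KO- and Het-labelled libraries lay below the other 4. The change was -1.28 on the log2 scale for KO against WT labels (SE 0.28, edgeR adjusted p = 0.0086) and -0.84 for Het against WT (SE 0.26, edgeR adjusted p = 0.0339). SmoM2 against WT gave 0.15 (SE 0.24, edgeR adjusted p = 0.957). The KO against WT call was lost without KO replicate 2 (edgeR adjusted p = 0.0504). The Het against WT call was lost without Het replicate 1 (0.11), Het replicate 2 (0.137) or WT replicate 2 (0.233, log2 change -0.48), all edgeR adjusted p. With the stress score as a term the changes were -0.96 (edgeR adjusted p = 0.279) for KO and -0.25 (edgeR adjusted p = 0.899) for Het against WT labels.

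Pde4b (ENSMUSG00000028525, chr4:102087543-102607259) was low throughout. It had 0 counts in both KO-labelled libraries and 2 and 1 in the Het-labelled, against 23 and 21 in the WT-labelled and 15 and 12 in the SmoM2-labelled libraries. Taking 3 counts per library as the floor, its level was at least 3.36-fold lower in KO- than in WT-labelled libraries and at least 2.22-fold lower than in SmoM2-labelled libraries. WT- over Het-labelled libraries gave a ratio of 9.85 with a 95% exact interval of 3.16 to 49.6, which covers counting error only. No p-value is given for these differences, since the gene entered the test through the groups where it is high.

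Pde3a, which encodes a cAMP phosphodiesterase that cGMP inhibits, followed another order (ENSMUSG00000041741, chr6:141249269-141507448). Its level was 37.29 and 55.71 CPM in Het-labelled libraries, 18.81 and 25.77 in SmoM2-labelled, 9.30 and 8.49 in KO-labelled and 6.15 and 7.52 in WT-labelled libraries. The Het-labelled libraries lay highest and the SmoM2-labelled next, and no groups overlapped. The KO-labelled level was 2.38 lower than the Het-labelled on the log2 scale (SE 0.26), the difference that chose the gene. Het- and KO-labelled libraries, both low in Smo, thus lay far apart in Pde3a, while their log2 differences from WT-labelled libraries were 2.76 (SE 0.25) and 0.38 (SE 0.29), given without a test.

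The SmoM2- against WT-labelled difference in Pde3a did not enter the choice. It was 1.71 on the log2 scale (SE 0.25, edgeR adjusted p = 0.0350), a 3.26-fold higher level. It was past the threshold with all 8 libraries but not without KO replicate 1 (edgeR adjusted p = 0.0555), KO replicate 2 (0.0551), WT replicate 1 (0.13) or SmoM2 replicate 2 (0.17). With only the 2 groups in the model the edgeR adjusted p was 0.0659, and with the stress score as a term 0.279. Summed stress gene levels and Pde3a were both highest in the Het-labelled libraries. The KO and SmoM2 labels did not share 1 order. Stress genes summed to 6549 to 8090 CPM in KO- and 4991 to 6966 in SmoM2-labelled libraries. Pde3a stood at 8.90 ± 0.572 and 22.3 ± 4.92 CPM there. The part of stress in the Pde3a level was not tested.

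Pde3b (ENSMUSG00000030671, chr7:114415281-114539251), a close relative of Pde3a, gave 15.50 and 29.83 CPM in KO-labelled, 27.80 and 27.86 in Het-labelled, 34.96 and 28.86 in WT-labelled and 31.90 and 35.83 in SmoM2-labelled libraries. The KO-labelled libraries lay far apart, and the second overlapped the WT-labelled range. The log2 change of KO against WT labels was -0.49 (SE 0.25, edgeR adjusted p = 0.168), and -1.05 (edgeR adjusted p = 0.0135) without KO replicate 2. Het against WT gave -0.20 (SE 0.24) and SmoM2 against WT 0.08 (SE 0.23), neither past the threshold in edgeR.

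**Figure D3:**
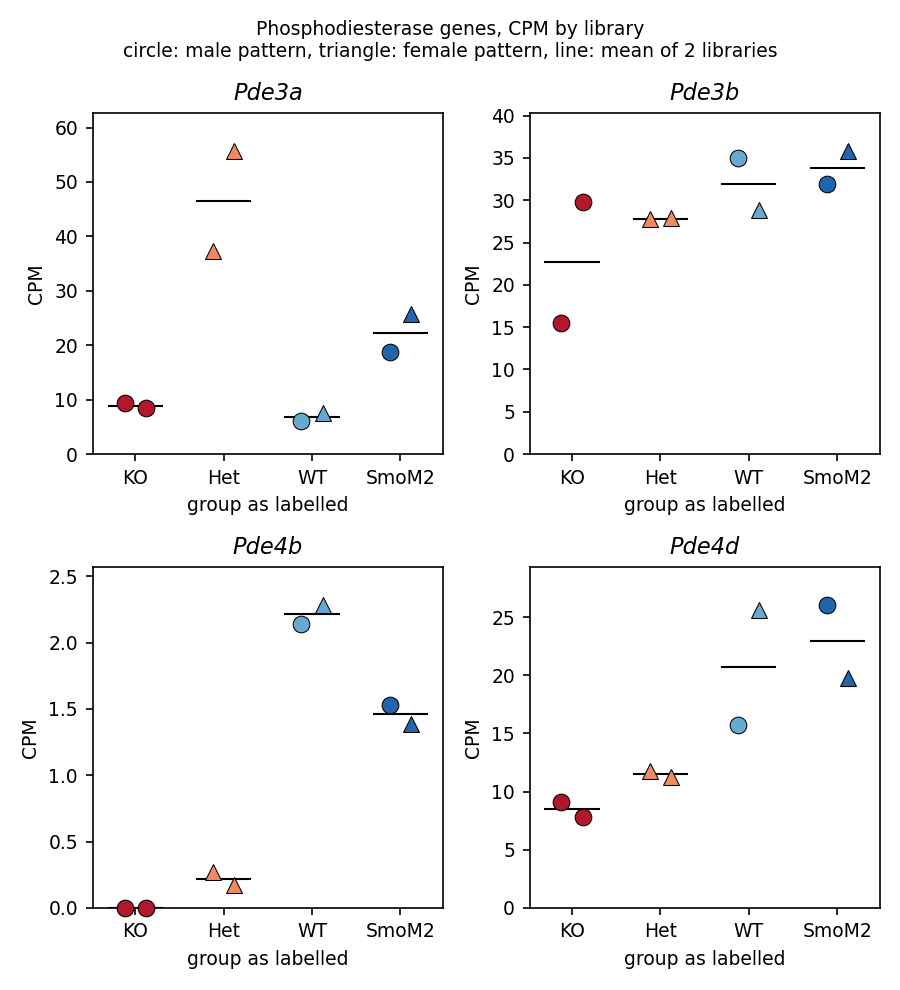
Levels of the 4 phosphodiesterase genes in CPM (vertical axes from 0, own scale per gene) by labelled group. Circles are male and triangles female libraries, and lines are means of 2. Pde3a is highest in Het-labelled libraries, at 37.29 and 55.71 CPM, while every KO- and Het-labelled library lies below every WT- and SmoM2-labelled one for Pde4b and Pde4d.

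Per gene length, Pde7a was the largest single part of the 16 cAMP phosphodiesterase genes in each group. The 4 members together held 24.5% ± 2.60 of the summed RPKM in KO-, 43.1% ± 2.09 in Het-, 30.3% ± 0.456 in WT- and 40.5% ± 7.37 in SmoM2-labelled libraries. Pde7a held 38.2% ± 1.90 of the summed RPKM in KO-, 34.3% ± 0.644 in Het-, 45.6% ± 0.256 in WT- and 33.2% ± 7.48 in SmoM2-labelled libraries. Pde3b held 13.6% ± 4.67 in KO-, 12.7% ± 1.52 in Het-, 16.7% ± 2.64 in WT- and 17.1% ± 3.33 in SmoM2-labelled libraries. Pde3a took 26.3% ± 4.26 in Het-labelled libraries, 14.3% ± 4.71 in SmoM2-, 6.93% ± 1.23 in KO- and 4.49% ± 0.530 in WT-labelled libraries. The family sum was 26.3 ± 3.29 RPKM in KO-, 33.7 ± 3.86 in Het-, 29.6 ± 0.718 in WT- and 30.3 ± 3.53 in SmoM2-labelled libraries, and the SmoM2-labelled range overlapped all the others. Of the other 12 genes 11 were tested. Leaving out 3 at the floor in the KO-labelled libraries (Pde1a, Pde7b and Pde8a), 1 of 8 was higher and 0 lower in KO- against WT-labelled libraries. Over all genes 23.0% passed there. Pde2a, a phosphodiesterase that cGMP stimulates, had 12.6 and 22.6 CPM in KO-labelled libraries and 1.86 and 2.72 in WT-labelled, a log2 change of 2.94 (SE 0.46, edgeR adjusted p = 0.00158). It was also 2.47 higher than in Het-labelled libraries (SE 0.46, edgeR adjusted p = 0.0116). Pde7b stood at 0.550 ± 0.162 CPM in KO-labelled libraries, with 5 counts in both together, and at 2.73 ± 1.22 in WT-labelled libraries. None of the 11 passed in Het- against WT-labelled libraries by edgeR, beside 25.3% of all genes.

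The PKA subunits were the most abundant of the 10 genes per gene length. Prkaca, the alpha catalytic subunit (ENSMUSG00000005469, chr8:83972993-83996443), had 129.09 and 134.76 CPM in KO-labelled, 155.86 and 151.34 in Het-labelled, 110.09 and 111.53 in WT-labelled and 106.03 and 116.38 in SmoM2-labelled libraries. The Het-labelled libraries lay highest and the KO-labelled next, with WT and SmoM2 labels overlapping below. Het against WT labels differed by 0.47 on the log2 scale (SE 0.11, edgeR adjusted p = 0.0125), a 1.39-fold higher level. That call was lost without any 1 of 4 libraries, at an edgeR adjusted p of 0.111 without Het replicate 1, 0.0783 without Het replicate 2, 0.0548 without WT replicate 1 and 0.063 without WT replicate 2. With the stress score as a term the change was 0.20 (edgeR adjusted p = 0.817). KO against WT gave 0.25 (SE 0.12, edgeR adjusted p = 0.136) and SmoM2 against WT 0.00 (SE 0.11, edgeR adjusted p = 0.997).

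Prkar1a, the type I alpha regulatory subunit (ENSMUSG00000020612, chr11:109649405-109669656), gave 377.96 and 385.99 CPM in KO-labelled, 394.47 and 374.35 in Het-labelled, 358.14 and 393.29 in WT-labelled and 360.63 and 396.52 in SmoM2-labelled libraries. All groups overlapped. Its log2 changes were 0.02 for KO, 0.03 for Het and 0.01 for SmoM2 against WT labels, each with an SE of 0.12, and none passed in edgeR (adjusted p = 0.902, 0.863 and 0.995). The KO value was -0.000354 with RLE scaling and the SmoM2 value -0.025 with RPKM totals, so those signs depend on the scaling. Among its several promoter windows, only the one shown above holds the whole cAMP response element.

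The balance of PKA subunits was computed from RPKM. Prkaca over Prkacb, the beta catalytic subunit, stood at 3.10 and 2.82 in KO-labelled, 2.89 and 2.70 in Het-labelled, 1.75 and 1.86 in WT-labelled and 1.56 and 1.89 in SmoM2-labelled libraries. The KO- and Het-labelled libraries all lay above the others. Prkacb itself was lower in KO- than in WT-labelled libraries by 0.46 on the log2 scale (a change of -0.46, SE 0.13, edgeR adjusted p = 0.0226) and differed by -0.16 between Het and WT labels (SE 0.12, edgeR adjusted p = 0.354). The summed regulatory over summed catalytic RPKM was 1.95 and 1.96 in KO-labelled, 1.68 and 1.62 in Het-labelled, 1.86 and 2.07 in WT-labelled and 1.93 and 2.06 in SmoM2-labelled libraries. Only the Het-labelled libraries lay outside the range of the others, and this ratio was not tested. Prkar1a held between 72.9% and 76.7% of the regulatory sum in all libraries.

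**Figure D4:**
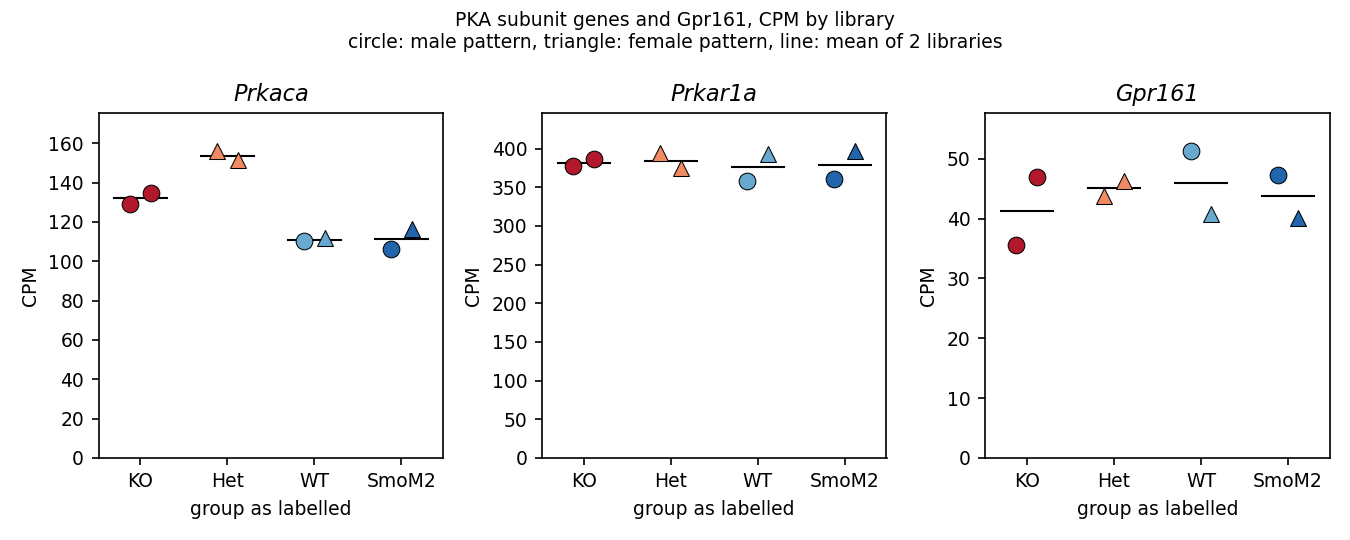
Levels of Prkaca, Prkar1a and Gpr161 in CPM (vertical axes from 0, own scale per gene) by labelled group. Circles are male and triangles female libraries, and lines are means of 2. Prkaca is highest in Het-labelled libraries, at 155.86 and 151.34 CPM, and the groups overlap for Prkar1a and Gpr161.

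Of 6 other PKA subunit and inhibitor genes tested, 1 was higher and 2 were lower in KO- against WT-labelled libraries, beside 23.0% of all genes. Prkar2b, the type II beta regulatory subunit, was higher by 0.66 (SE 0.17, edgeR adjusted p = 0.0176). Pkia, which encodes a PKA inhibitor peptide, changed by -0.67 (SE 0.17, edgeR adjusted p = 0.0173) in KO and by -0.96 (SE 0.17, edgeR adjusted p = 0.00259) in Het against WT labels. Of 13 genes for anchors that hold PKA in place, leaving out Akap6, 2 were higher and 4 lower in KO against WT labels, beside 23.0% of all genes in either direction. Akap12 was higher by 1.07 (SE 0.13, edgeR adjusted p = 0.000451), while Akap13 changed by -1.06 (SE 0.14, edgeR adjusted p = 0.000541) and Akap11 by -0.86 (SE 0.13, edgeR adjusted p = 0.00113). Akap6 had 0 counts in both KO-labelled libraries and 4 and 20 in the WT-labelled libraries, which differed among themselves, and it is left out of the count. In Het against WT labels 3 of the 13 anchors were higher and 1 lower, 30.8% beside 25.3% of all genes. Akap12 was at 0.87 (SE 0.13) and Akap11 at -0.75 (SE 0.12), both past the threshold.

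Gpr161 (ENSMUSG00000040836, chr1:165295789-165326745) stood at 35.65 and 47.02 CPM in KO-labelled, 43.84 and 46.37 in Het-labelled, 51.27 and 40.73 in WT-labelled and 47.34 and 40.10 in SmoM2-labelled libraries. All groups overlapped. Its log2 changes against WT labels were -0.16 (SE 0.17) for KO, -0.03 (SE 0.17) for Het and -0.07 (SE 0.17) for SmoM2, with edgeR adjusted p of 0.546, 0.912 and 0.969. Among 8 genes of its ciliary traffic, 2 passed in KO and 2 in Het against WT labels, beside 23.0% and 25.3% of all genes. In both of these groups with low Smo, Arrb1 was lower and Arrb2 higher. These beta-arrestins help receptors leave the membrane. Arrb1 changed by -0.63 in KO and -0.79 in Het against WT labels (SE 0.15 and 0.14, edgeR adjusted p = 0.0108 and 0.00306), and Arrb2 by 0.52 and 0.76 (SE 0.15 and 0.15, edgeR adjusted p = 0.0302 and 0.00423). Tulp3, which carries Gpr161 into the cilium, differed by 0.04 (SE 0.17) and 0.15 (SE 0.17), neither past the threshold.

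**Figure D5:**
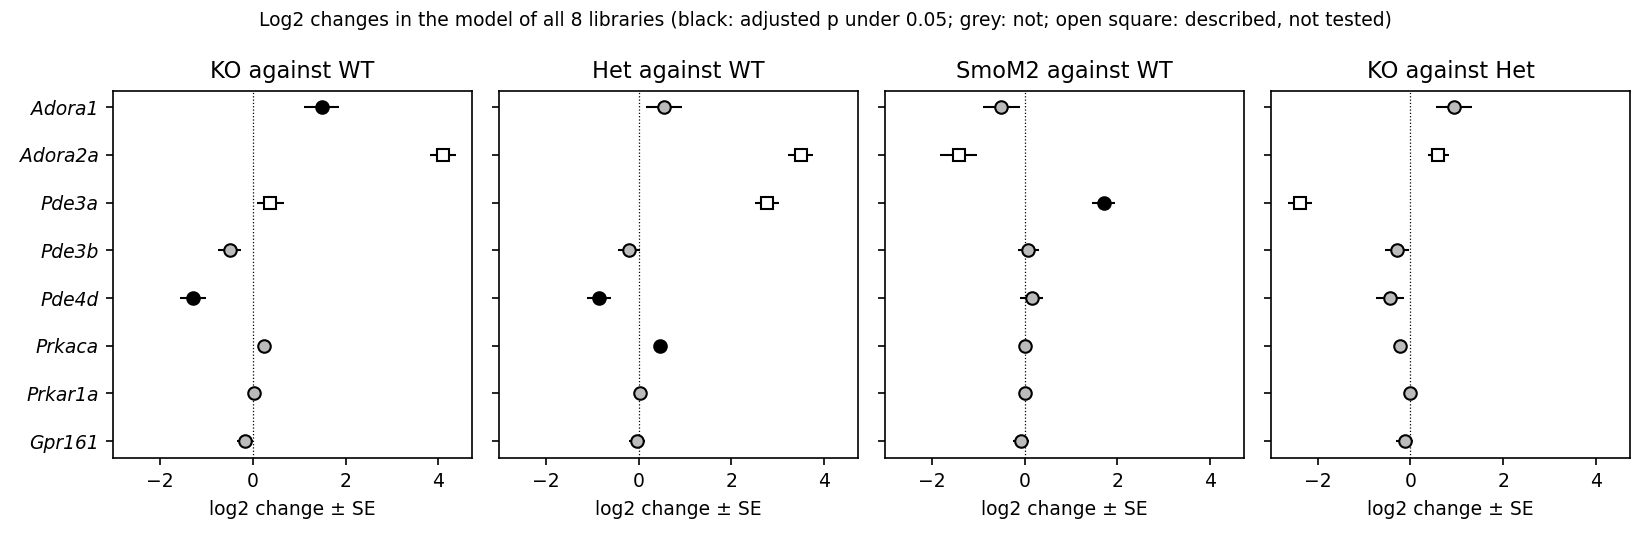
Log2 changes with SE (horizontal axis) of 8 of the genes in 4 comparisons of labelled groups. Black circles passed an adjusted p of 0.05, grey circles did not, and open squares are values that chose the gene or derive from them and were not tested. Pde4b and Adora2b are left out because of counts at or near 0. The Prkar1a and Gpr161 points stay within 0.16 of 0 in all 4 panels.

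Ranked by RPKM within a group, Prkar1a and Prkaca were the highest of the 10 genes in all 4 groups, at 83.2 ± 1.57 and 36.3 ± 1.39 RPKM in WT-labelled libraries. Adora2a came next in KO-labelled libraries, at 12.9 ± 1.55 RPKM, and was the eighth in WT-labelled libraries at 0.720 ± 0.285. Pde3a was the third in Het-labelled libraries at 8.95 ± 2.45 RPKM, where its range overlapped that of Adora2a at 8.04 ± 0.149. In WT-labelled libraries Gpr161 at 5.39 ± 1.12 RPKM and Pde3b at 4.97 ± 0.903 followed Prkaca and overlapped each other.

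The genes whose pattern over the 8 libraries lay nearest to that of Adora2a were Ppp1r1b, Gfra2 and Cd74, with root mean square differences of 0.54, 0.58 and 0.59 in centred log2 CPM among 12299 candidates. Ppp1r1b encodes DARPP-32, an inhibitor of protein phosphatase 1 that PKA switches on, and stood at 48.0 ± 12.5 CPM in KO-, 56.8 ± 3.97 in Het-, 6.65 ± 2.47 in WT- and 2.22 ± 0.192 in SmoM2-labelled libraries. Gfra2 encodes a co-receptor for GDNF family ligands and stood at 51.2 ± 4.20 CPM in KO- and 82.8 ± 10.9 in Het-labelled libraries, against 3.62 ± 2.66 in WT-labelled. Unlike Adora2a, all 3 were highest on average in Het-labelled libraries. Nearest to Pde3a were Klf2, Pcdhb6 and Adcy5, at 0.63, 0.63 and 0.64. These are descriptions over 8 libraries that share the group means.

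Upstream of cAMP, 16 of 17 G protein and adenylyl cyclase genes were tested. In KO- against WT-labelled libraries 1 was higher and 2 were lower, 18.8% beside 23.0% of all tested genes. Adcy2 was higher by 1.00 (SE 0.21, edgeR adjusted p = 0.00768), Adcy9 changed by -1.31 (SE 0.26, edgeR adjusted p = 0.00588) and the Gi gene Gnai3 by -0.37 (SE 0.12, edgeR adjusted p = 0.0417). In Het- against WT-labelled libraries 3 were higher and 3 lower, 37.5% beside 25.3% of all tested genes. There Adcy5 changed by 1.63 (SE 0.39, edgeR adjusted p = 0.0113), Adcy2 by 1.25 (SE 0.21, edgeR adjusted p = 0.00187) and Gnal, a relative of the Gs alpha gene, by -1.63 (SE 0.47, edgeR adjusted p = 0.0257). Adcy9 also separated KO from Het labels, by -1.37 (SE 0.27, edgeR adjusted p = 0.0135). Gnas, the Gs alpha gene, differed from WT labels by 0.05 in KO, -0.03 in Het and 0.28 in SmoM2 (SE 0.15 each), and none passed. Gnai2 differed by -0.16 and -0.23 in KO and Het against WT (SE 0.13 each), and Adcy6 by -0.20 and 0.27 (SE 0.17 each), also not past the threshold.

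Downstream of cAMP, 1 of 13 effector and CREB factor genes was higher and 5 were lower in KO- against WT-labelled libraries. These calls made up 46.2% of the list, beside 23.0% of all tested genes. The cAMP-activated exchange factors Rapgef3 and Rapgef4 (Epac proteins) went opposite ways, by 1.07 (SE 0.31, edgeR adjusted p = 0.028) and -2.38 (SE 0.51, edgeR adjusted p = 0.00825). Rapgef4 also changed by -3.09 in Het against WT (SE 0.52, edgeR adjusted p = 0.00199), with 9 counts in the Het-labelled libraries together against 115 in the WT-labelled. In KO against WT labels the CREB coactivator Crtc3 changed by -0.79 (SE 0.13, edgeR adjusted p = 0.00192) and Crebbp, another, by -0.76 (SE 0.16, edgeR adjusted p = 0.00739). Between the KO and Het labels 5 of the 13 were lower in KO and 0 higher, 38.5% beside 9.43% of all genes. Among the 5, Crebbp changed by -0.81 and Crtc3 by -0.51 (SE 0.16 and 0.13, edgeR adjusted p = 0.0137 and 0.0339). Creb1 itself differed by -0.13 (SE 0.15) in KO against WT and Crem by -0.17 (SE 0.28), neither past the threshold.

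Of 7 tested CREB target genes, 2 were higher in KO against WT labels, 28.6% beside 23.0% of all genes. In Het against WT labels 4 of 6 were higher and 1 lower, leaving out Ppargc1a, which was at the floor, beside 25.3% of all genes. Gem was the lower gene, with a log2 change of -1.06, and Nr4a2 changed by 1.23. Between KO and Het labels 1 of the 6 was lower and 0 higher, 16.7% beside 9.43% of all genes. That gene was Per1, with a log2 change of -0.80. Fos was higher by 0.77 in KO (SE 0.24, edgeR adjusted p = 0.0392) and 1.52 in Het (SE 0.25, edgeR adjusted p = 0.00169). Nr4a1 was higher by 1.20 in KO (SE 0.32, edgeR adjusted p = 0.0217) and 1.30 in Het (SE 0.32, edgeR adjusted p = 0.0134). Both are also immediate early genes, which cell dissociation is known to induce. Of 17 stress genes, a list without Fos and Nr4a1, 9 were higher in KO and 11 in Het against WT labels. Over all genes 23.0% and 25.3% passed in either direction. The part of dissociation in the Fos and Nr4a1 levels was not tested.

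Among 10 genes of the Hedgehog arm that PKA acts on, 6 were lower in KO against WT labels, Smo included. Over all genes 23.0% passed in either direction. In Het against WT labels 4 of 9 were lower, leaving out Hhip, which was at the floor, beside 25.3% of all genes. Gli1, a transcriptional target of the pathway, had 5.98 and 2.83 CPM in KO-labelled, 2.67 and 4.42 in Het-labelled, 33.6 and 28.3 in WT-labelled and 75.9 and 73.5 in SmoM2-labelled libraries. Ptch1, the Hedgehog receptor, changed by -1.61 in KO (SE 0.12, edgeR adjusted p = 3.67e-05) and 1.18 in SmoM2 (SE 0.11, edgeR adjusted p = 0.00219) against WT. Gli3, the main substrate for processing to a repressor, differed by -0.49 (SE 0.21, edgeR adjusted p = 0.109) in KO and -0.04 (SE 0.20, edgeR adjusted p = 0.916) in Het against WT, and Sufu by -0.13 (SE 0.12) and 0.25 (SE 0.12). SmoM2- against WT-labelled libraries had 3 of the 10 higher (Hhip, Gli1 and Ptch1), beside 0.223% of all genes.

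Over all lists, leaving out genes at the floor in either group, 9 of 89 genes were higher and 20 lower in KO against WT. This was 32.6% beside 23.0% of all tested genes. The shares over all tested genes keep genes at the floor, unlike those of the lists. In Het against WT 14 of 89 were higher and 12 lower, 29.2% beside 25.3%, and in KO against Het 1 of 86 was higher and 10 lower, 12.8% beside 9.43%. In SmoM2 against WT 3 of 94 were higher and 0 lower, 3.19% beside 0.223%. The lists' median log2 changes were -0.10, 0.06, -0.21 and 0.07 in that order. All 3 that passed in SmoM2 against WT were Hedgehog target genes. Of the cAMP machinery genes with a test in that comparison, members included, only Pde3a passed by edgeR. As given above, that call was lost in several alternatives. Adora2a was described there without a test, and Adora2b was not tested.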

How the data were processed

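Per the file headers, the authors' table holds raw read counts per gene symbol for 8 libraries, their RPKM values and a gene length. Per the submitters' processing notes, STAR, featureCounts and Subread were used with build mm10. Tool versions, annotation and strand setting are not given in the sources used here. Groups came from the labels.

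The counts entered edgeR 4.0.16 (R 4.3.3). The default filter on low counts left 13459 of 24539 genes, libraries were scaled by TMM, and a quasi-likelihood model with a mean per group was fitted to all 8 libraries (4 residual degrees of freedom, biological coefficient of variation 13.5%). Tests were two-sided, with Benjamini-Hochberg adjustment across the tested genes and a threshold of 0.05. The script was first tested on simulated counts with known changes. An exact permutation test of 2 against 2 libraries cannot go below p = 0.333, so none is given. A group with at most 3 counts in every library is at the floor. A fold against a group with 0 counts is a lower bound computed from 3 counts per library, and against 1 to 3 counts in all a ratio with its exact interval. A gene at the floor in a group compared is left out of the counts of calls, a rule added after seeing the data. The counts over marker lists and the shares over all tested genes keep such genes. No label mentions molecular identifiers, so floors and intervals describe counting error alone.

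Listed counts were 4422305 to 10305398 per library, and listed symbols held 81.1% to 83.3% of the totals the authors' RPKM imply. Gene positions are from GENCODE vM21 (GRCm38, the same assembly as mm10), and promoter windows from RefSeq GRCm38.p6. Alternatives were another scaling (RLE, or totals implied by RPKM), other filters, DESeq2 1.42.0, only the groups compared, a replicate block, a sex term, a stress score term (mean centred log2 CPM of 17 genes, prior count 2) and each library left out. Leaving out both Het-labelled libraries was added after seeing the data.

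The members and gene lists were chosen with earlier results of these data known. Named genes are all members, up to 4 genes per list and comparison with the largest change past the threshold, a set of core pathway genes whatever their change, and for Adora2a and Pde3a the 3 genes of nearest pattern with a mean log2 CPM of at least 1.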

Additional observations from a re-analysis of the deposited data

How the results depend on the processing

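The recomputed values were log2 changes of members, Pde4b included, and counts of members called. Of these, 587 were classed as unchanged and 49 changed sign. A call was lost in 24 and gained in 4, and 24 values without a test moved away from the main result. For tested genes, unchanged means the same direction and the same side of the threshold. For counts and for genes given without a test, it means that the value stayed near the main result. In KO against WT labels the Adora1 call held in 15 of 18 alternatives and the Pde4d call in 16 of 18. Each loss for Adora1 came from leaving out a KO- or WT-labelled library, while most of the 18 settings kept all of those.

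Counts of members called, here over 7 with Pde4b, were 3, 3, 0 and 0 with all libraries and moved by more than 1.5 times in few settings. Pde4b entered the test through the groups where it is high, so its calls are not read as results. Leaving it out, the counts with all libraries were 2, 2, 0 and 0. KO against Het labels gave 1 (Adora1) with no count filter and 1 (Adora1) with only the groups compared, against 0. With the stress score as a term, KO against WT gave 1 (Adora1) and Het against WT 0. The score itself differs between the labelled groups, and its term left 310, 16, 7 and 408 of all genes called in KO, Het and SmoM2 against WT and KO against Het. Leaving out single libraries gave 0 to 3 members in Het against WT (0 without either Het replicate, 1 without WT replicate 2). Over all genes, the counts called ranged over the alternatives from 310 to 3829, 16 to 4093, 7 to 356 and 36 to 2217 in the same order, against 3100, 3403, 30 and 1269. The causes were not tested.

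Changes of sign were mostly in values near 0. Prkar1a in KO against WT gave -0.000354 with RLE scaling, -0.0093 with 10 counts in every library, -0.0061 with only the groups compared, -0.000572 with DESeq2 and -0.0052 without both Het-labelled libraries. With RPKM totals, SmoM2 against WT gave -0.033 for Prkaca and -0.025 for Prkar1a, and KO against Het 0.067 for Prkar1a. The sex term gave -0.033 for Prkar1a and 0.12 for Gpr161 in Het against WT, and -0.17 for Adora1 and 0.13 for Prkar1a in KO against Het. The stress term gave -0.19 for Pde3a and -0.13 for Prkar1a in KO against WT, and -0.24 for Prkar1a and 0.20 for Gpr161 in Het against WT. In SmoM2 against WT it gave 0.20 for Adora1, -0.21 for Pde3b, -0.095 for Prkaca, -0.092 for Prkar1a and 0.0072 for Gpr161, and in KO against Het -0.025 for Adora1, 0.031 for Pde3b and 0.11 for Prkar1a.

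Leaving out single libraries gave ranges across 0. In KO against WT these were -0.047 to 0.060 for Prkar1a and -0.38 to 0.027 for Gpr161, and in Het against WT -0.038 to 0.078 and -0.21 to 0.14. In SmoM2 against WT they were -1.35 to 0.034 for Adora1, -0.034 to 0.23 for Pde3b, -0.16 to 0.56 for Pde4d, -0.054 to 0.082 for Prkaca, -0.054 to 0.093 for Prkar1a and -0.22 to 0.10 for Gpr161. In KO against Het they were -0.85 to 0.097 for Pde3b, -0.066 to 0.025 for Prkar1a and -0.35 to 0.058 for Gpr161. A lone library left in a group is assumed to vary like the other groups.

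The labels give the groups the same replicate numbers, but libraries with the same number deviated together only in part (correlations of -0.06 to 0.39), so the numbers were not taken as pairs. With a replicate block, KO against WT and Het against WT each gave 3 members, Pde4b included, and the other comparisons 0, and no member call changed. At the depth of the KO-labelled libraries, the floor of 3 counts per library is 0.659 CPM, and differences below it are not read.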
